A study of Homo sapiens with 6 samples.

Results

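Solute carriers (SLC and SLCO genes) encode membrane proteins that move amino acids, sugars, nucleosides, vitamins, metals and other ions across the plasma membrane and the membranes of mitochondria, lysosomes and the Golgi. The genes described here are those whose symbol has the form of an SLC or SLCO gene and whose mean over the 6 libraries was at least 10 raw counts, leaving out SLC2A1, SLC2A3 and SLC16A3. By this rule 154 genes were chosen of 61541 in the files, which hold 389 genes with such symbols. Of the others, 139 had no count in any library and 93 had counts but a mean under 10. The genes were thus chosen by their mean count, so their presence is not a result. SLC17A3 gives the set its working name because it was already known to fall in these data, and its values are therefore given as a description, with no p and as no support, although the fit over all genes includes it.

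The cells were RCC4, an established human line of clear cell renal carcinoma. Of the 2 groups, the untreated one had 3 cultures and the other had 3 cultures exposed for 24 h to interferon gamma (1000 U/mL) together with tumour necrosis factor (25 ng/mL), called IFNg + TNF below. Each biological replicate came from 3 flasks. Poly(A) RNA was read by direct RNA nanopore sequencing, which reads each RNA strand from its 3′ end without amplification, and the files give raw read counts per gene. Both groups are of 1 cell line, so the values describe that line alone. In these bulk samples, fewer cells with a transcript and less of it per cell cannot be told apart.

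In the kidney, solute carriers of the proximal tubule recover filtered solutes and secrete organic anions, and clear cell renal carcinoma is held to arise from that epithelium. SLC7A5 and SLC3A2 encode the light and heavy chains of the LAT1/CD98 exchanger, which brings large neutral amino acids into the cell. SLC25 proteins carry metabolites, phosphate and iron across the inner mitochondrial membrane, and SLC30 and SLC39 proteins move zinc out of and into the cytosol.

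Library totals ran from 3626000 to 4406296 counts. Levels are given in CPM, counts scaled to the normalised library size. The level of 3 counts, up to which a gene with no count may lie, was between 0.677 and 0.866 CPM. Of 12 markers of renal carcinoma epithelium 9 had a mean of at least 10 counts, with summed levels of 6561 to 8167 CPM in untreated and 8687 to 11864 CPM in IFNg + TNF libraries, while LRP2 and CDH1 were at 0 throughout. Most of this sum was VIM, an intermediate filament protein, which rose from 4616 ± 311 to 7314 ± 907 CPM (SD, n = 3 each; edgeR adjusted p 0.0274, and 0.0561 to 0.126 without untreated replicate 1 or 2 or IFNg + TNF replicate 1 or 2). The epithelial keratin KRT19 fell from 367 ± 42.6 to 174 ± 36.0 CPM (edgeR adjusted p 0.00995, and 0.0636 to 0.069 without untreated replicate 2 or IFNg + TNF replicate 2 or 3). The renal transcription factor PAX8 fell from 145 ± 16.4 to 84.1 ± 11.5 CPM (SD, n = 3 each; edgeR adjusted p 0.0316, and 0.0657 to 0.153 without untreated replicate 1 or 2 or any 1 IFNg + TNF replicate). The other 6 tested markers of this list were not called. Among these, the keratins KRT8 and KRT18 had log2 fold changes of 0.32 (SE 0.26) and -0.01 (SE 0.35). PAX2 had 15.5 ± 1.87 and 15.6 ± 7.18 CPM. Over the 9 tested markers 3 log2 fold changes were positive and 6 negative. All 4 endothelial markers were at 0, and of 6 leukocyte markers 4 were at 0 (PTPRC, CD3E and TYROBP among them), with sums of 0 in untreated and 0.451 to 2.28 CPM in IFNg + TNF libraries. Of 5 fibroblast markers COL1A2, LUM and DCN were at 0, and the sum was 54.8 to 74.5 CPM in untreated and 27.4 to 49.1 CPM in IFNg + TNF libraries. The part of these markers in the results was not tested. Untreated replicate 3 stood apart from the other untreated libraries (chi-square per degree of freedom of 27.7 and 24.1 against them, and of 3.79 between them). Between IFNg + TNF libraries the values were 11.5, 14.4 and 18, so these too differed from each other.

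Of the 154 solute carrier genes, 152 passed the filter on low counts and were tested with all other genes, and 14 were called, having passed the 0.05 threshold of edgeR's quasi-likelihood test after adjustment over all genes. Of these, 6 were higher in IFNg + TNF cells (SLC15A3, SLC12A7, SLC25A28, SLC22A4, SLC2A6 and SLC8B1) and 8 were lower (SLC17A3, SLC7A5, SLC6A8, SLC3A2, SLC4A4, SLC44A3, SLC48A1 and SLC30A5). The called share was 9.21% of the tested members, beside 8.14% of all 10067 genes tested, with 3.95% higher beside 5.58% and 5.26% lower beside 2.55%. These shares include SLC15A3, SLC12A7, SLC17A3 and SLC4A4, which had a mean of 10 counts in 1 group alone. They entered the set through the group where they are high, which favours a difference. In all, 9 tested members met this minimum in 1 group alone, and these 4 were the ones called. They are described below by their values, with no p. Among the 143 tested members with a mean of at least 10 counts in each group, 4 were called higher and 6 lower. That is 6.99% of them beside 6.54% of the 9419 genes held to the same minimum, with 2.8% higher beside 4.42% and 4.2% lower beside 2.12%. This second minimum was set after the values were seen. The median log2 fold change was -0.07 over the tested members and -0.03 over all genes tested, with 62 positive and 90 negative values among the members. Groups did not overlap in CPM for 41 members (27%), beside 25.9% of all genes, so this share is near the background. In 88 of the 152 the log2 fold change was between -0.5 and 0.5.

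**Figure D1:**
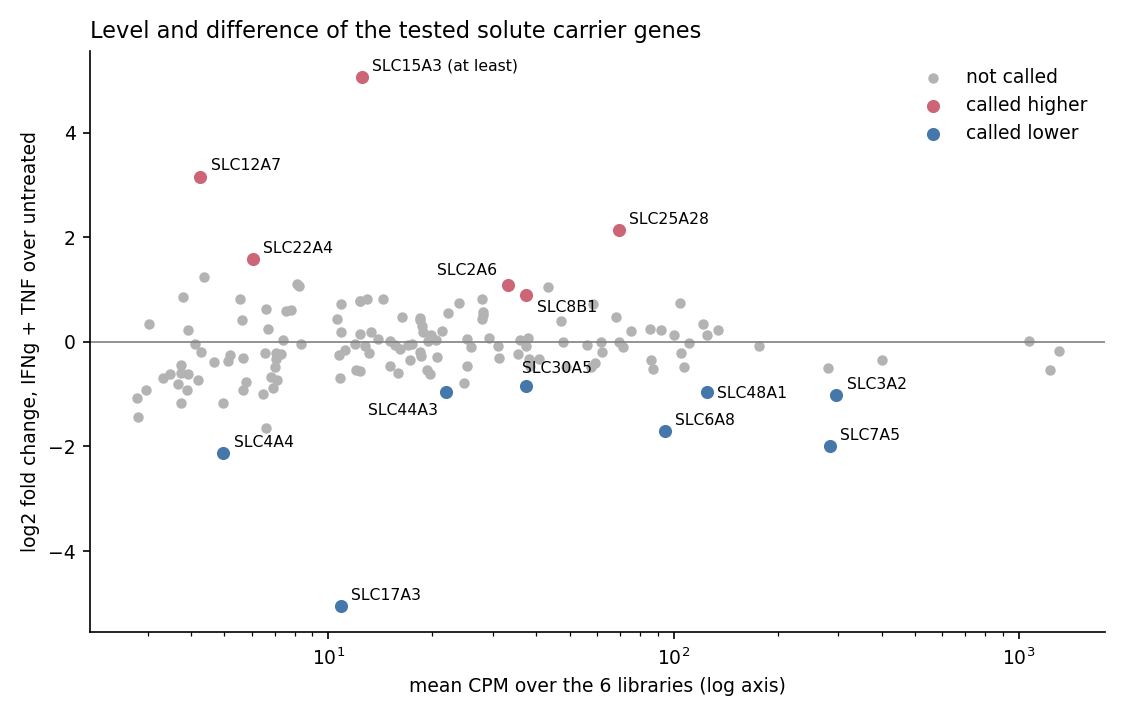
Mean level of each tested solute carrier gene over the 6 libraries (x, CPM, log axis) against its log2 fold change in IFNg + TNF over untreated cells (y), with 1 point per gene and called genes in colour. SLC15A3, with no untreated count, is drawn at its lower bound of 5.06, and most of the 138 uncalled genes lie close to the line at 0.

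The calls rested unevenly on single libraries. SLC25A28, SLC7A5, SLC6A8 and SLC3A2 passed the threshold in each of the 14 alternative fits, among them the 6 that leave out 1 library. The other 6 called genes with counts in both groups did not pass in 4 or more of the fits, and their values without the libraries concerned are given with each gene.

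SLC17A3 (ENSG00000124564; chromosome 6, 25833066 to 25882286, minus strand) encodes NPT4, a voltage-driven organic anion transporter of the proximal tubule that exports urate. Untreated replicates 1, 2 and 3 held 62, 71 and 127 counts, or 16.2, 18.4 and 28.9 CPM. The IFNg + TNF replicates held 3, 4 and 0 counts, or 0.866, 0.903 and 0 CPM. No IFNg + TNF library held more than 4 counts, and the lowest untreated library was far above them. The level averaged 21.2 ± 6.80 CPM in untreated and 0.590 ± 0.511 CPM in exposed libraries (SD, n = 3 each). The log2 fold change was -5.05 (SE 0.57). In fits without any 1 library and in the other alternatives this value lay between -5.47 and -4.52. Exons of the pseudogene H2AC3P on the same strand cover 7% of the exonic bases of SLC17A3, outside the last 500, the end from which reads start.

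Promoter sequences, 250 bases before to 50 after a RefSeq start on GRCh38.p14, were available for 13 of the 14 called genes and for 128 of all 154. They were searched on both strands for the interferon gamma-activated sequence (GAS, TTCNNNGAA), for an interferon-stimulated response element core (GAAA, any 2 bases, GAAA) and an NF-kappaB motif (GGGAN followed by TTTCC). An amino acid response element core (TGATGNAA) was added after the values of SLC7A5 and SLC3A2 were seen. A pair of falling genes with a match and a pair of called genes without any are shown, in the direction of the gene, with matches in capitals.
SLC17A3 (chr6:25874194-25874493, minus strand): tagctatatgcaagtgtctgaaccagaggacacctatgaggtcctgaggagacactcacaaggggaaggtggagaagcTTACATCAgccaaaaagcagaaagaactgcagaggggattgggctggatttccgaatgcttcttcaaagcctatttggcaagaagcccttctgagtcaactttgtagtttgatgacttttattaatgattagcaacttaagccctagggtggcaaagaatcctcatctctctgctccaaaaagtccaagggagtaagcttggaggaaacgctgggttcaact
SLC3A2 (chr11:62881449-62881748, plus strand): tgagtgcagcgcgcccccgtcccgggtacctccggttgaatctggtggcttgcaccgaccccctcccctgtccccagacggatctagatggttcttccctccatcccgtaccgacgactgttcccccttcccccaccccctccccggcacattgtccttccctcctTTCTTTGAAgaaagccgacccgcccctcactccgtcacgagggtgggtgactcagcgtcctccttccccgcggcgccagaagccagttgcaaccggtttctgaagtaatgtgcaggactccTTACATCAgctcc
SLC7A5 (chr16:87869458-87869757, minus strand): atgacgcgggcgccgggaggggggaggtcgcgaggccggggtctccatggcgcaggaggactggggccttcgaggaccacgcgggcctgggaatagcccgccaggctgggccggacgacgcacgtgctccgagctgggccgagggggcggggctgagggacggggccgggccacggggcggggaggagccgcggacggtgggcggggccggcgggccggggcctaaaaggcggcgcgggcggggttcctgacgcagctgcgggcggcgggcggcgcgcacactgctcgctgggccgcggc
SLC25A28 (chr10:99620390-99620689, minus strand): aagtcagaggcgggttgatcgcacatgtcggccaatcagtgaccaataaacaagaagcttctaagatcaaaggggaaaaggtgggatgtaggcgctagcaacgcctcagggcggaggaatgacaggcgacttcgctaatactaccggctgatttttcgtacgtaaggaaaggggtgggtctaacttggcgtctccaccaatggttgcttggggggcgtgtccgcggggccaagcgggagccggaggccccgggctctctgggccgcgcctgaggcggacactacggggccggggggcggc

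Counting from 1 at the start, with negative numbers before it, the SLC17A3 window holds an amino acid response element core whose first base is at -172. The SLC3A2 window holds a GAS match at -84 and an amino acid response element core at 38. It is 1 of 3 starts listed for SLC3A2, and the SLC17A3 start lies inside the span that the files give for the gene. The SLC7A5 and SLC25A28 windows held none of the 4 motifs. Among called genes GAS matched windows of SLC3A2 and SLC4A4, the amino acid response element core matched those of SLC17A3 and SLC3A2, and the other 2 motifs matched none. GAS was in 7.73% of 194 windows of solute carrier genes and 7.66% of all 35116 windows. The amino acid response element core was in 5.67% and 3.62%, the interferon-stimulated core in 1.55% and 3.57%, and the NF-kappaB motif in 0.515% and 0.558%. The windows of solute carrier genes had a median GC content of 67%, against 58.7% for all. A match describes the letters of the window and is not evidence that a factor binds.

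Amino acid and peptide carriers held the most abundant genes that fell. Of 24 members 3 fell, and SLC15A3, counted in exposed cells alone, was higher. Over all genes tested 2.55% were called lower and 5.58% higher, and the counts of this and each later class stand beside these shares. They are of few genes, and no class was tested as a set. The median log2 fold change of the class was -0.15. SLC7A5 (ENSG00000103257; chromosome 16, 87830023 to 87869507) had 498, 433 and 427 CPM in untreated replicates 1, 2 and 3 and 145, 108 and 85.6 CPM in the IFNg + TNF replicates. The groups were far apart, with no untreated library near the others. It fell by 2.00 on the log2 scale (SE 0.22; edgeR adjusted p 0.000579), a 4.01-fold difference.

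Its heavy chain SLC3A2 (ENSG00000168003; chromosome 11, 62856004 to 62888880) had 411, 400.5 and 379 CPM in untreated and 207, 166 and 213 CPM in IFNg + TNF libraries. Levels within each group were close together and the groups did not overlap. SLC3A2 fell by 1.02 on the log2 scale (SE 0.17; edgeR adjusted p 0.00553). Over the alternatives the lowest adjusted p was 2.95e-05 and the highest 0.0438. Of the other light chains of this partnership, SLC7A6 had 19.8 ± 3.35 CPM in untreated and 17.1 ± 3.81 CPM in IFNg + TNF libraries (SD, n = 3 each; edgeR adjusted p 0.778). The rest had few counts. SLC7A11, the cystine carrier, held 1, 2 and 9 untreated counts and 2, 2 and 2 after exposure. SLC7A8 and SLC7A10 had no counts, and SLC7A7 held 8 counts or fewer in every library. Another gene on the same strand covers 55.4% of the last 500 exonic bases of SLC7A8, so reads of SLC7A8 may have been left uncounted. Outside this partnership, the second heavy chain SLC3A1 and its light chain SLC7A9 held at most 1 count in any library.

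Per kilobase of exon the SLC7A5 level was 1.53 ± 0.0890 times that of SLC3A2 in untreated libraries and 0.783 ± 0.214 times in IFNg + TNF libraries (SD, n = 3 each). The ratio was 1.63, 1.45 and 1.51 in untreated and 0.940, 0.871 and 0.540 in IFNg + TNF replicates 1, 2 and 3. All 3 ratios after exposure were below all untreated ones. The difference in ratio, -0.746, had an exact permutation p of 0.1 (2-sided), which 3 against 3 libraries cannot go below, and 0.133 after adjustment over the 4 ratios compared. These 4 pairs were chosen after their values were seen. Reads start at the 3′ end of each RNA strand, so dividing by exon length sets the size of a ratio. The ratios thus describe a change between groups and not relative numbers of transcripts. In CPM, SLC7A5 and SLC3A2 had means of 453 and 397 in untreated and 113 and 195 in IFNg + TNF libraries.

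SLC6A8 (ENSG00000130821; chromosome X, 153687926 to 153696588), the creatine transporter, had 137, 143 and 153 CPM in untreated and 47.1, 37.0 and 48.2 CPM in IFNg + TNF libraries. The groups were well separated and each was narrow. It fell by 1.71 on the log2 scale (SE 0.18; edgeR adjusted p 0.000477). SLC15A3 (ENSG00000110446; chromosome 11, 60937060 to 60952653), a proton-coupled peptide and histidine transporter of the endolysosomal membrane, went the other way. It had 0 counts in all 3 untreated libraries and 84, 88 and 108 counts in the IFNg + TNF replicates. Its level after exposure was 25.0 ± 5.51 CPM (SD, n = 3), at least 33.4-fold higher than the level of 3 counts per untreated library. It passed the filter and the 10-count rule through the exposed libraries alone.

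Among 11 solute carrier genes tied to the amino acid response, 7 were members and all 7 were tested. SLC7A5 and SLC3A2 were the 2 that fell, none rose, and the median log2 fold change was -0.35. Called lower were 2.55% of all genes tested, and 2.12% of those with a mean of at least 10 counts in each group. The list was written with earlier results of these data known, so its count is not independent evidence. SLC1A5, the glutamine and neutral amino acid exchanger ASCT2, had 520.2, 475 and 354 CPM in untreated and 432, 344 and 283 CPM in IFNg + TNF libraries, which overlap (-0.35 on the log2 scale, SE 0.22, edgeR adjusted p 0.452). The cationic amino acid transporter SLC7A1 had a log2 fold change of -0.46 (SE 0.28) and SLC1A4, for alanine, serine and cysteine, one of -0.10 (SE 0.25). SLC38A1 and SLC38A2, which carry glutamine and other small neutral amino acids with sodium, had -0.32 (SE 0.27) and 0.02 (SE 0.45). Untreated replicate 3 was the highest of the 6 libraries for both, with 61.5 and 31.9 CPM. In this class SLC66A3 was the uncalled gene of at least 10 CPM with the largest difference, 16.2, 10.6 and 26.9 CPM in untreated against 16.5, 30.5 and 43.1 CPM in IFNg + TNF libraries (edgeR adjusted p 0.389).

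**Figure D2:**
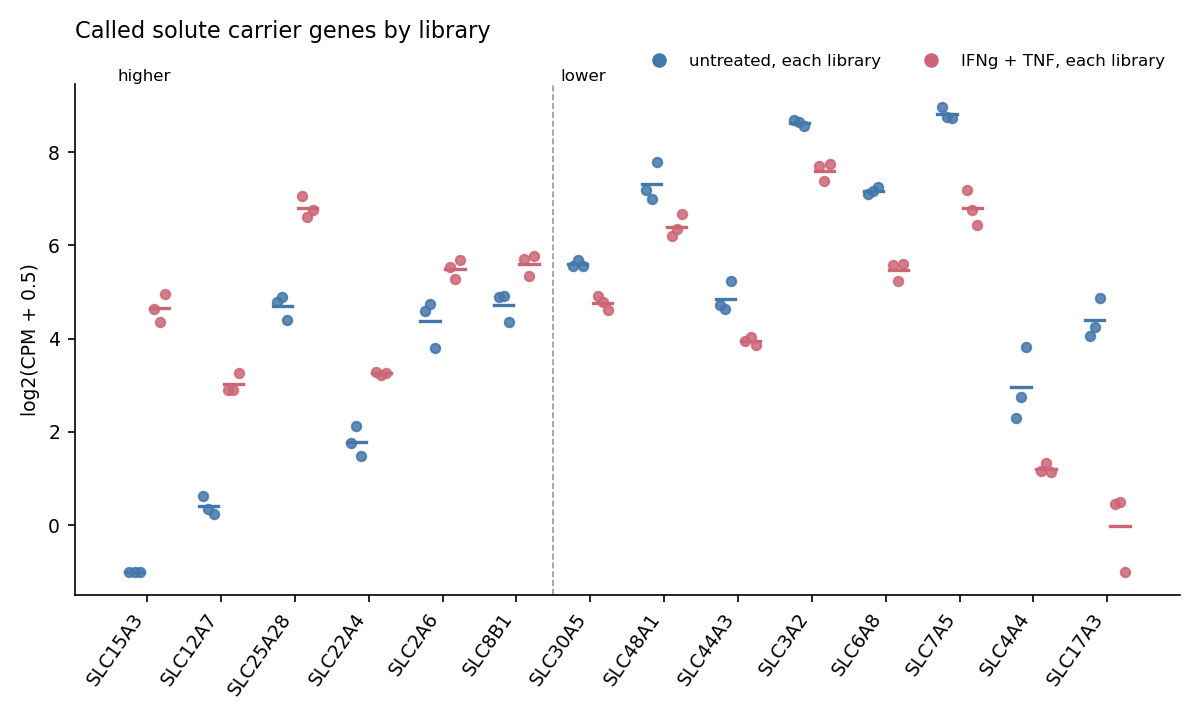
The 14 called solute carrier genes, with log2(CPM + 0.5) of each library as a point and the group mean as a bar, ordered by fold change (higher in IFNg + TNF left of the dashed line, lower right of it). The 3 points of each group lie on separate sides for all 14 genes, SLC15A3, SLC12A7, SLC4A4 and SLC17A3 being shown as values with no p, and SLC15A3 in untreated cells lies at the value of 0 counts.

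Mitochondrial carriers were the largest class, with 34 members, of which 1 rose and none fell. SLC25A28 (ENSG00000155287; chromosome 10, 99610522 to 99620609) encodes mitoferrin-2, which brings iron into mitochondria. It had 27.2, 29.2 and 20.7 CPM in untreated and 133, 97.5 and 108 CPM in IFNg + TNF libraries. Its lowest exposed library was well above its highest untreated library. It rose by 2.13 on the log2 scale (SE 0.22; edgeR adjusted p 0.000356), or 4.39-fold. Its paralog SLC25A37, mitoferrin-1, had 23.1 ± 3.36 and 33.0 ± 3.36 CPM (SD, n = 3 each). Its log2 fold change was 0.51 (SE 0.21; edgeR adjusted p 0.217). The ratio of SLC25A28 to SLC25A37, per kilobase of exon, was 4.94, 4.94 and 4.68 in untreated and 16.4, 12.3 and 16.3 in IFNg + TNF libraries. Their exon lengths were 1830 and 7996 bases, and in CPM their untreated means were close, at 25.7 and 23.1. The ratio was higher in every exposed library (exact permutation p 0.1, adjusted 0.133).

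Groups did not overlap for 11 of the 34 mitochondrial carriers, 7 with lower and 4 with higher levels after exposure. This is 32.4% of the class beside 25.9% of all genes, and 10 of the 11 were not called. SLC25A3, which carries phosphate into mitochondria for ATP synthesis, had the highest mean level of these. It had 1604, 1605 and 1176 CPM in untreated and 1159, 1003 and 849 CPM in IFNg + TNF libraries. The groups did not overlap, but untreated replicate 3 lay beside the exposed libraries. Its log2 fold change was -0.54 (SE 0.19) with an edgeR adjusted p of 0.143, and of 0.025 without untreated replicate 3. Over the 14 alternative fits the adjusted p of SLC25A3 ran from 0.0148 to 0.445. SLC25A22, a mitochondrial glutamate carrier, had 28.3 ± 9.93 and 58.1 ± 13.3 CPM (SD, n = 3 each; 1.04 on the log2 scale, SE 0.30, edgeR adjusted p 0.0731, and 0.0476 without untreated replicate 1). For SLC25A22 the alternatives gave an adjusted p from 0.000598 to 0.218. Per kilobase of exon the 5 highest members were SLC25A6 at 839 CPM, SLC25A5 at 689.5, SLC25A3 at 139, SLC1A5 at 120.5 and the citrate carrier SLC25A1 at 88.4. This ranking depends on exon length, as do the ratios. SLC25A5 and SLC25A6 encode closely similar ADP/ATP carriers, so their split of reads is uncertain. Neither was called, at 0.02 (SE 0.19) and -0.18 (SE 0.15) on the log2 scale, and SLC25A1 had -0.07 (SE 0.20).

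Metal carriers held 2 falls and no rise among 22 members, beside 2.55% lower and 5.58% higher over all genes. Their median log2 fold change was -0.02. SLC48A1 (ENSG00000211584; chromosome 12, 47753916 to 47782751), the heme transporter HRG1, had 145, 128 and 221 CPM in untreated and 72.8, 80.8 and 101 CPM in IFNg + TNF libraries. Untreated replicate 3 was the highest, and the groups did not overlap. The log2 fold change was -0.95 (SE 0.24; edgeR adjusted p 0.046). SLC48A1 did not pass without untreated replicate 1 (0.0601) or 2 (0.06), nor without IFNg + TNF replicate 1 (0.15), 2 (0.174) or 3 (0.0848), nor in limma voom (0.0521) or with library totals alone (0.0507). SLC30A5 (ENSG00000145740; chromosome 5, 69093991 to 69131069) encodes ZnT5, which loads zinc into the early secretory pathway. It had 46.3, 51.2 and 46.5 CPM in untreated and 29.5, 26.9 and 24.0 CPM in IFNg + TNF libraries, with both groups narrow. The log2 fold change was -0.84 (SE 0.19; edgeR adjusted p 0.0254), and the adjusted p was 0.0816 without untreated replicate 1, 0.132 without untreated replicate 2, and 0.0597, 0.105 and 0.128 without IFNg + TNF replicate 1, 2 and 3.

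ZnT5 pairs with ZnT6, encoded by SLC30A6, which had 11.6 ± 5.30 CPM in untreated and 9.76 ± 2.05 CPM in IFNg + TNF libraries (SD, n = 3 each; edgeR adjusted p 0.804). The ratio of SLC30A5 to SLC30A6, per kilobase of exon, overlapped between groups, at 5.34, 5.97 and 2.60 in untreated and 3.9, 2.32 and 2.32 in IFNg + TNF libraries (exact permutation p 0.2, adjusted 0.2). The zinc exporter SLC30A1 had 9.08 ± 2.29 and 15.6 ± 4.29 CPM (edgeR adjusted p 0.201). None of the 10 SLC39 zinc importers was called. SLC39A14, the importer ZIP14, had 55.2, 52.2 and 63.5 CPM in untreated and 60.4, 75.4 and 101 CPM in IFNg + TNF libraries (0.47 on the log2 scale, SE 0.22, edgeR adjusted p 0.295). SLC39A8, the importer ZIP8, had a log2 fold change of -0.47 (SE 0.41). The copper importer SLC31A1 and its relative SLC31A2 differed by -0.54 (SE 0.22) and 0.63 (SE 0.35) on the log2 scale, with groups that did not overlap in either gene and edgeR adjusted p of 0.22 and 0.379. The iron importer SLC11A2 had 0.45 (SE 0.29).

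Of 13 tested inorganic ion carriers SLC8B1 rose, while SLC12A7 and SLC4A4 reached the count minimum in 1 group alone. SLC12A7 (ENSG00000113504; chromosome 5, 1050384 to 1112063), the potassium-chloride cotransporter KCC4, held 4, 3 and 3 counts in untreated and 24, 31 and 32 counts in IFNg + TNF libraries. In CPM these were 1.05, 0.776 and 0.683 against 6.93, 7.00 and 9.13. The untreated level was at about the level of 3 counts, and the exposed libraries were close to each other. The fitted log2 fold change was 3.16 (SE 0.40). Like SLC15A3, it met the 10-count mean through the exposed libraries, so no p is given. SLC8B1 (ENSG00000089060; chromosome 12, 113298759 to 113359493), the mitochondrial sodium-calcium exchanger NCLX, had 29.1, 29.5 and 20 CPM in untreated and 51.7, 40.2 and 54.2 CPM in IFNg + TNF libraries. Its log2 fold change of 0.89 (SE 0.23) had an edgeR adjusted p of 0.047. That p was 0.0762, 0.118 and 0.0595 without untreated replicate 1, 2 and 3, and 0.135, 0.0591 and 0.185 without IFNg + TNF replicate 1, 2 and 3. With all libraries, SLC8B1 also did not pass under a filter of 1 CPM in 3 libraries (0.0531) or with protein-coding genes alone (0.0549).

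SLC4A4 (ENSG00000080493; chromosome 4, 71062667 to 71572087), the sodium-bicarbonate cotransporter NBCe1 of the basolateral proximal tubule, had 4.45, 6.21 and 13.7 CPM in untreated and 1.73, 2.03 and 1.71 CPM in IFNg + TNF libraries. Untreated replicate 3 was the highest by far, and the exposed libraries lay within a narrow range. The fitted log2 fold change was -2.13 (SE 0.50). SLC4A4 met the 10-count mean through the untreated libraries, with a mean of 7 counts in the exposed ones, so no p is given. SLC26A2, a sulfate transporter, was 1 of the 2 members that did not pass the filter. It held 10, 24 and 58 untreated counts and 4, 7 and 6 counts after exposure, so it too met the 10-count mean through 1 group. In a fit of all 19158 genes that had any count, its log2 fold change was -2.25 (SE 0.51). That fit called 10 members higher and 10 lower, of 154, beside 4.43% and 2.5% of its genes. Its genes include those with a single count, whereas members have a mean of at least 10, so these shares are not of like sets. The uncalled gene with the largest difference at 10 CPM or more was SLC9A8, a sodium-proton exchanger, with 9.05 ± 3.25 and 15.5 ± 4.20 CPM (edgeR adjusted p 0.247).

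Organic anion and cation carriers, the class of SLC17A3, had 10 members, with SLC22A4 the gene that rose. SLC22A4 (ENSG00000197208; chromosome 5, 132294394 to 132344190) encodes OCTN1, the ergothioneine transporter. It held 11, 15 and 10 counts in untreated and 32, 39 and 32 counts in IFNg + TNF libraries, or 3.01 ± 0.809 and 9.06 ± 0.228 CPM (SD, n = 3 each). The groups did not overlap, and the log2 fold change was 1.58 (SE 0.33; edgeR adjusted p 0.0197). It did not pass without untreated replicate 1 (0.0507) or without IFNg + TNF replicate 1 (0.0635), 2 (0.058) or 3 (0.0773). Its paralog SLC22A5, the carnitine transporter OCTN2, had 23.8 ± 5.59 and 15.6 ± 5.16 CPM (SD, n = 3 each). The fitted difference was -0.61 on the log2 scale (SE 0.30; edgeR adjusted p 0.31). Per kilobase of exon the ratio of SLC22A4 to SLC22A5 was 0.918, 0.866 and 0.768 in untreated and 2.96, 3.99 and 5.69 in IFNg + TNF libraries. This ratio was higher in every exposed library (exact permutation p 0.1, adjusted 0.133). Its size reflects exon lengths of 2721 and 18390 bases. In counts SLC22A4 was below SLC22A5 in every library, with 32, 39 and 32 against 73, 66 and 38 after exposure. SLCO4A1, an organic anion transporter, had 20.2 ± 9.38 and 35.4 ± 14.6 CPM (edgeR adjusted p 0.343).

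**Figure D3:**
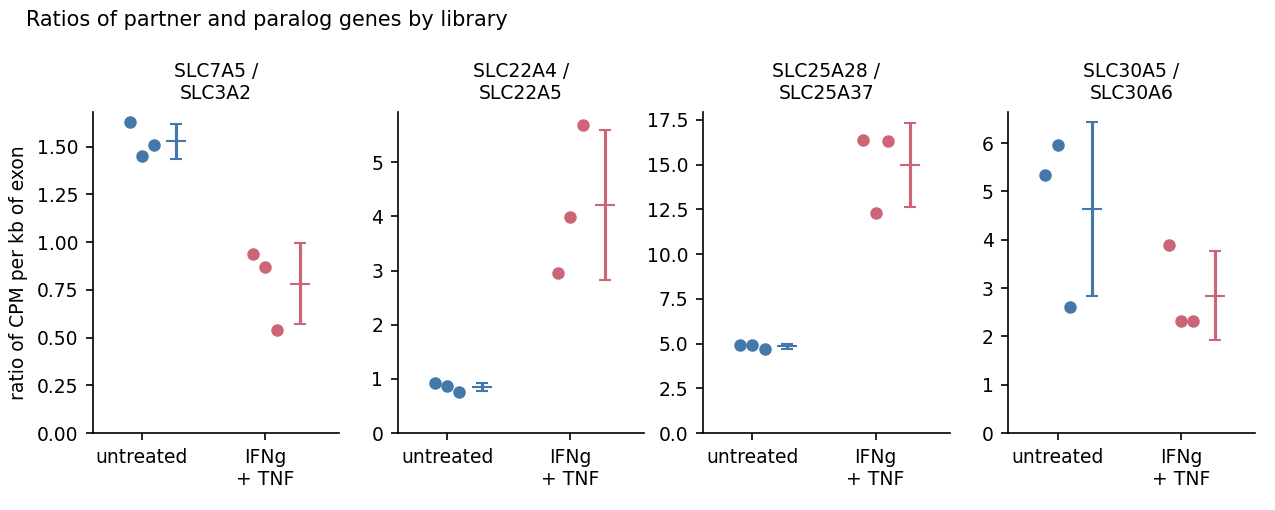
Ratio of CPM per kilobase of exon between partner or paralog genes in each library (points), with the mean and SD of 3 libraries beside them and each axis starting at 0. The groups are apart for the first 3 ratios and overlap for SLC30A5 over SLC30A6. The size of a ratio depends on the exon lengths and does not give relative numbers of transcripts.

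Among sugar and sodium-coupled carriers 1 of 9 tested members rose and none fell, beside 5.58% higher and 2.55% lower over all genes. The class median was 0.35. SLC2A6 (ENSG00000160326; chromosome 9, 133471094 to 133479127), the lysosomal hexose transporter GLUT6, had 23.8, 26.4 and 13.4 CPM in untreated and 45.6, 38.1 and 51.1 CPM in IFNg + TNF libraries. Untreated replicate 3 was the lowest. The log2 fold change was 1.08 (SE 0.28; edgeR adjusted p 0.0452), and the adjusted p was 0.0598 and 0.0756 without untreated replicate 1 and 2, and 0.116, 0.0781 and 0.177 without IFNg + TNF replicate 1, 2 and 3. The intracellular glucose transporter SLC2A8 had 31.5 ± 9.34 and 18.2 ± 3.85 CPM, with overlapping groups (edgeR adjusted p 0.161). Its adjusted p was 0.0166 without untreated replicate 3 and up to 0.461 in the other alternatives. SLC50A1, the sugar transporter SWEET1, named after its values were seen, had 77.9 ± 11 and 130.2 ± 24.0 CPM with groups that did not overlap (0.74 on the log2 scale, SE 0.20, edgeR adjusted p 0.0588, and 0.0227 in the fit of all genes with a count and 0.0271 in DESeq2). Across the alternatives the adjusted p of SLC50A1 ran from 0.01 to 0.24. Of the glycolysis-linked genes that the rule leaves out, the lactate exporter SLC16A3 had 336 ± 26.5 and 602 ± 95.2 CPM (edgeR adjusted p 0.0198, and 0.057, 0.0842, 0.069 and 0.0958 without untreated replicate 1 or 2 and IFNg + TNF replicate 1 or 3). The glucose transporters SLC2A1 and SLC2A3 differed by -0.56 (SE 0.18) and 1.83 (SE 0.49) on the log2 scale, with edgeR adjusted p of 0.115 and 0.0553, and SLC2A3 had 0.00659 without untreated replicate 3 and passed in 7 of the 14 alternatives.

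In the smaller classes 1 gene was called. SLC44A3 (ENSG00000143036; chromosome 1, 94820342 to 94895246), of the choline transporter-like family, had 25.7, 24.3 and 37.1 CPM in untreated and 15, 15.8 and 14 CPM in IFNg + TNF libraries. The exposed libraries were nearly equal and untreated replicate 3 was the highest. The log2 fold change was -0.96 (SE 0.24; edgeR adjusted p 0.0436). It did not pass without any 1 library, with 0.0658, 0.0827 and 0.0611 without untreated replicate 1, 2 and 3, and 0.116, 0.125 and 0.169 without IFNg + TNF replicate 1, 2 and 3, nor in limma voom (0.0512). None of the 22 carriers of nucleosides and nucleotide sugars was called, with log2 fold changes up to 0.82 for SLC35G2 (SE 0.29; edgeR adjusted p 0.147). The lactate and pyruvate carrier SLC16A1 had 61.8 ± 11.5 and 61.4 ± 12.2 CPM, and the folate carrier SLC19A1 29.3 ± 8.97 and 21.2 ± 4.51 CPM (SD, n = 3 each). SLC27A5, of the fatty acid transport family, had a log2 fold change of -0.48 (SE 0.26), the phosphate carrier SLC20A2 -0.33 (SE 0.26) and SLC49A4 -0.55 (SE 0.31).

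**Figure D4:**
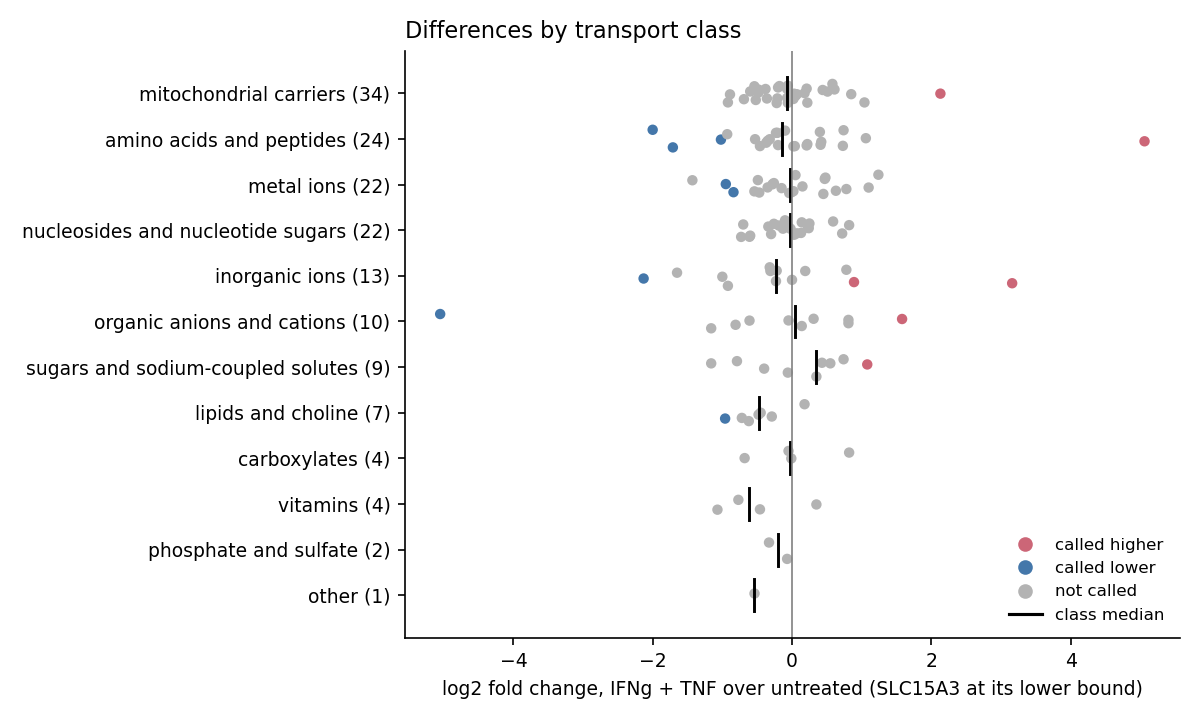
Log2 fold change in IFNg + TNF over untreated cells of each tested solute carrier gene, with 1 row per transport class, the number of tested genes in brackets and the class median as a bar. SLC15A3 is drawn at its lower bound, the class medians lie between -0.62 and 0.35, and the called genes are spread over 7 classes.

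A list of 34 transporters of the proximal tubule was thin in these cells. Of its genes 17 had no count in any library, 13 had a mean under 10, and 4 were members. The genes at 0 throughout included its family member SLC17A1, the organic anion transporters SLC22A6 and SLC22A8, the urate transporter SLC22A12 and the sodium-glucose cotransporter SLC5A1. For 3 genes at 0, others on their strand cover part of the last 500 exonic bases: 89.2% for SLC9A3, 55.4% for SLC7A8 and 11.4% for SLC22A6. Reads of these genes may have been left uncounted, so their 0 counts need not mean absence. Of the 4 members SLC17A3 and SLC4A4 were lower after exposure, beside 2.55% called lower over all genes tested. Both met the count minimum through the untreated libraries alone, and the list was written with earlier results of these data known. Their count is therefore not independent evidence. The glutamate transporter SLC1A1 had 3.4, 2.07 and 9.79 CPM in untreated and 3.47, 1.81 and 2.85 CPM in IFNg + TNF libraries (edgeR adjusted p 0.469), with untreated replicate 3 alone above the others. SLC16A9 had 4.19 ± 2.29 and 4.05 ± 0.812 CPM (edgeR adjusted p 0.973).

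On a list of 15 solute carrier genes linked to cytokines or inflammation, 11 were members and were tested. SLC25A28 and SLC2A6 rose, 2 of the 11. Called higher were 5.58% of all genes tested, and 4.42% of those with a mean of at least 10 counts in each group. SLC15A3 was higher and SLC4A4 lower, each with counts at the minimum in 1 group alone. The list was written with earlier results of these data known, so its count is not independent evidence. SLC7A2 and SLC28A2 had no counts, and SLC11A1 and SLC16A6 held at most 1 count in any library.

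Genes that work with solute carriers were counted from a list of 20 accessory and regulatory partners. Of these 12 were tested and 1 rose, beside 5.58% called higher over all genes. PDZK1IP1, a small membrane protein of the proximal tubule that associates with sodium-glucose cotransport, had 131, 157 and 268 CPM in untreated and 641, 523 and 766 CPM in IFNg + TNF libraries (1.79 on the log2 scale, SE 0.28, edgeR adjusted p 0.0046). HNF4A, a transcription factor of proximal tubule genes, had no counts. The scaffold PDZK1 had 25.2 ± 15.9 and 10.6 ± 2.99 CPM (edgeR adjusted p 0.141, and from 0.00376 to 0.386 over the 14 alternative fits). BSG, the chaperone of lactate carriers, had a log2 fold change of 0.10, and of -0.01 with library totals alone. Of 21 carriers with other symbols 17 were tested. Beside 2.55% called lower and 5.58% higher over all genes, 2 of these carriers fell and none rose. They were SPNS2, which exports sphingosine 1-phosphate, from 63.6 ± 3.62 to 20.5 ± 2.64 CPM (edgeR adjusted p 0.00086), and the mitochondrial carrier UCP2, from 178 ± 10.2 to 73.0 ± 26.1 CPM (SD, n = 3 each; edgeR adjusted p 0.0163, and 0.0718 and 0.0836 without replicate 2 of either group).

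Summed over the 154 genes, solute carriers took between 0.988% and 1.02% of counts in untreated and between 0.794% and 0.821% in IFNg + TNF libraries. On the normalised scale the sums were 10301, 10185 and 8904 CPM in untreated and 9025, 7898 and 8329 CPM in IFNg + TNF libraries, which overlap. The mean sum was 1379 CPM lower after exposure. The 5 largest drops in level, those of SLC25A3 (458 CPM), SLC7A5 (339.9 CPM), SLC3A2 (202 CPM), SLC25A6 (159.7 CPM) and SLC6A8 (100.3 CPM), added up to 1259 CPM. Of these, SLC25A3 and SLC25A6 were not called. The 1379 CPM is the net of all falls and gains of members, so the 1259 CPM is not a share of it. The largest gain was that of SLC25A28, at 87.1 CPM. By mean level 17 members had 100 CPM or more, 87 had 10 to 100 CPM and 50 had less than 10 CPM.

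Just inside the 10-count rule lay SLC2A13 with a mean of 10 counts, SLC46A1 with 11, and SLC37A2, SLC39A10 and SLC4A3 with 11.7 each. Just outside lay SLC45A4 with 9.67 and SLC12A2 with 8.33. SLC2A13, which carries myo-inositol with protons, was the other member that did not pass the filter, with 11, 18 and 10 untreated counts and 7, 10 and 4 after exposure. Of all 154 members 18 share exonic bases with another gene on their strand. For 3 of these, SLC35B2, SLC12A4 and SLC25A10, the shared bases reach into the last 500, so reads of these genes may have been left uncounted.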

How the data were processed

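The submitters deposited raw read counts per gene for 6 direct RNA libraries, made with featureCounts 2.0.1 in long-read, strand-specific mode on Ensembl release 105 (GRCh38), per the file headers. The submitters' processing notes name minimap2 2.24, SAMtools 1.16 and featureCounts 2.0.0. Input was 500 ng of poly(A) RNA and reads had a quality above 7, per the labels. The file headers' alignment names carry dmso, a vehicle the labels do not mention, and the titles gave the group and number of each library. Symbols came from a table that named 61369 of 61541 identifiers. All genes were fitted together with edgeR 4.0.16 in R 4.3.3 (quasi-likelihood F test, TMM, filterByExpr, Benjamini-Hochberg adjustment, threshold 0.05), with group as the sole term, and only solute carriers and listed genes are printed. SE is the log2 fold change over the square root of F. Tested on simulated counts for this comparison over 10067 genes, edgeR recovered 92 of 100 genes changed 4-fold and 24 of 100 changed 2-fold, with 7 false calls. Replicates differed beyond counting noise, so each library was counted. Genes were named by rule: those called, members of 4 lists, the 5 highest per kilobase, those next to the count minimum, and the largest uncalled difference per class. SLC22A5, SLC25A37, SLC30A6, SLC26A2, SLC50A1 and the partners and markers with other symbols were named after their values were seen. A few listed genes and 1 motif are not reported here. The members, lists and tests were chosen with earlier results of these data known. Alternatives used DESeq2 1.42.0, limma 3.58.1 voom, other scalings and filters, a replicate block, each library left out, and, added after seeing the data, protein-coding genes alone.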

Additional observations from a re-analysis of the deposited data

How the results depend on the processing

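The counts of called solute carrier genes, 6 higher and 8 lower, became 10 higher in the fit of all genes with a count (with 10 lower), 13 higher with the replicate block (with 11 lower) and 5 lower in limma voom. In the fits without 1 library they ranged from 3 to 8 higher and from 4 to 11 lower. The median log2 fold change of the members, -0.07, was -0.18 with library totals alone, where that of all genes was -0.13, and ranged from -0.16 to -0.03 without 1 library. Same-numbered libraries were not paired in the main fit, and the labels do not say whether they were paired in the experiment. Their deviations correlated at 0.651, -0.0037 and 0.374 for numbers 1, 2 and 3, and untreated replicates 2 and 3 correlated best with another number. With the replicate block 1513 of all 10067 genes were called, beside 819 in the main fit. Correlations over 3 libraries per group cannot settle whether the libraries were paired.

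Signs changed only in uncalled genes. SLC16A1 (log2 fold change -0.01) had 0.01 with DESeq2 size factors, with 1 CPM in 3 libraries, in DESeq2 and with protein-coding genes alone, 0.02 in the fit of all genes with a count, and -0.12 to 0.15 without 1 library. SLC16A9 (-0.05) had 0.02 with the replicate block, 0.05 in limma voom and -0.26 to 0.50 without 1 library. Without 1 library SLC1A4 (-0.10) ranged from -0.28 to 0.08, SLC25A1 (-0.07) from -0.22 to 0.14, SLC25A5 (0.02) from -0.16 to 0.12, SLC37A2 (0.35) from -0.70 to 0.80, SLC38A2 (0.02) from -0.27 to 0.57 and SLC30A6 (-0.26) from -0.43 to 0.18. With library totals alone SLC25A5 had -0.08, SLC38A2 -0.10 and BSG (0.10) -0.01, and SLC37A2 had -0.08 in limma voom. The causes were not tested. Over 63 named genes 767 of 882 values kept direction and call. A 2-fold change was often missed on simulated counts at this number of libraries, so an uncalled gene may differ.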
